A study of Mus musculus with 6 samples.

Results

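The genes described here belong to glycosyltransferase and sulfotransferase families that include the enzymes of mucin-type sugar chains. They were taken by symbol, and not every member acts on mucins. The chondroitin sulfotransferases and the glycolipid enzymes B3gnt5 and B4galnt1 are examples of members with other products. Counts of members below are therefore counts of these families and not of mucin enzymes alone. Members were all rows of the deposited count tables whose symbol begins with Galnt, St3gal, St6gal, St6galnac, B3gnt, B4galt, B3galt, B4galnt, Fut, Gcnt, C1galt or Chst followed only by digits and lower-case letters. The rule took 87 of 24517 genes, and the 80 with a mean count of at least 10 over the 6 libraries are described. Of the 87, 86 encode enzymes or the chaperone of one, and the other, Galnt6os, is a long non-coding RNA that lies opposite Galnt6. The rule uses the symbol and the mean count and no difference between libraries, but it was set with earlier results of these data known.

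RNA-seq was performed on 3 colon samples of Nsd2fl/fl mice, whose Nsd2 alleles carry loxP sites and are intact, and 3 of Nsd2ΔIE mice, in which the gene is deleted in the intestine. NSD2 is a histone methyltransferase that places H3K36me2. Both groups were on a C57BL/6J background and received HFCD, the diet used to induce steatohepatitis, for 16 weeks according to the labels, whereas the study's methods give a longer period. Villin-Cre acts in epithelial cells, whereas the libraries were made from colon tissue, so muscle, nerve and stromal cells that keep Nsd2 contribute RNA. No library of a normal diet was compared. The labels do not say whether each sample came from a separate mouse, so the p-values measure the spread between these samples.

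Mucin O-glycans start in the Golgi, where a GALNT enzyme attaches N-acetylgalactosamine (GalNAc) to serine or threonine of a mucin. C1GALT1 then makes the core 1 structure with galactose, or B3GNT6 makes core 3 with N-acetylglucosamine (GlcNAc), and GCNT enzymes add a branch to give core 2 or core 4. Chains are extended with GlcNAc and galactose and capped with sialic acid, fucose, GalNAc or sulfate. MUC2, the main gel-forming mucin of the colon, carries these chains, and their make-up is known to differ along the colon.

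Each library held between 38041832 and 38604680 counted reads, with a read in 20334 to 21312 genes. The unit CPM is counts scaled to the library total and corrected by the TMM method, and compares libraries, whereas the deposited FPKM are per length and compare genes. Nsd2 counts were 1840, 2091 and 2455 in the Nsd2fl/fl libraries and 972, 914 and 1139 in the Nsd2ΔIE libraries, a log2 difference of -1.23 with an SE of 0.159 (edgeR quasi-likelihood test, adjusted p = 0.302). The labels do not name the deleted exons. Xist had 0 to 4 counts in Nsd2fl/fl and 21217 to 24234 in Nsd2ΔIE, while 4 Y-linked genes summed to 5058 to 6110 and 0 to 1 counts. The libraries therefore differ in sex-linked transcripts exactly as they differ in genotype, although the study's methods describe male littermates, and the contributions of both to any difference below cannot be told apart. Hoxb13, a homeobox gene known from the distal colon, stood at 365, 340 and 310 CPM in Nsd2fl/fl replicates 1 and 3 and Nsd2ΔIE replicate 1, but at 0.706, 4.97 and 26.2 CPM in Nsd2fl/fl replicate 2 and Nsd2ΔIE replicates 2 and 3. The labels do not give the position along the colon. These are called the libraries of high and of low Hoxb13 below, and each set holds both genotypes.

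Promoter windows of 3 members are shown first because the results turn on these genes: B3gnt7 had the widest range of levels, B4galnt2 was the most abundant member that went the opposite way, and B3gnt3 was among the abundant members lower in Nsd2ΔIE. They are RefSeq sequences of GRCm38.p6 and run 5′ to 3′ on the strand of the gene, from 250 bases before to 50 bases after the start site given with the sequence. That site is the 5′ end of the annotated gene for B3gnt7, but lies 89 bases inside it for B4galnt2 and 826 bases inside it for B3gnt3, so other annotated starts are not covered. The B3gnt7 window lies at chr1:86302971-86303270 on the plus strand, that of B4galnt2 at chr11:95914822-95915121 on the minus strand and that of B3gnt3 at chr8:71701751-71702050 on the minus strand. Capitals mark each CG dinucleotide.
B3gnt7: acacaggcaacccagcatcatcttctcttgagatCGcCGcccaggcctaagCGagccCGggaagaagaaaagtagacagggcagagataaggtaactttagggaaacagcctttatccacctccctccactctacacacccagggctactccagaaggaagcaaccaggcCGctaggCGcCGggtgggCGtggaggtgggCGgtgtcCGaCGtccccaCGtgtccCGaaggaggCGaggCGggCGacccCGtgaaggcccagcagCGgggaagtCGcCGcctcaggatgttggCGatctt
B4galnt2: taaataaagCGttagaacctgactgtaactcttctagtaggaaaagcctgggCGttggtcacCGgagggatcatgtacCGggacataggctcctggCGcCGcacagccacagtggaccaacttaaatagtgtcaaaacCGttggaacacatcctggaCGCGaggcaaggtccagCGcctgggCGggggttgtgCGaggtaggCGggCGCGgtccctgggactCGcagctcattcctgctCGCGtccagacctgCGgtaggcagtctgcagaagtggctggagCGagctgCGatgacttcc
B3gnt3: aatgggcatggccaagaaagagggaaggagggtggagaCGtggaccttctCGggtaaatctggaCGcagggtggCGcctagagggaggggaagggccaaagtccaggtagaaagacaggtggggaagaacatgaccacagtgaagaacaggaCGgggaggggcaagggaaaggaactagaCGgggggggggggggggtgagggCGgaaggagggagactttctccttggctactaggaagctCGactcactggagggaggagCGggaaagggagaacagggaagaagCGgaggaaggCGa
The B3gnt7 and B4galnt2 windows held 21 CG dinucleotides each, a number reached by 24.8% of all windows, and the B3gnt3 window held 11, reached by 41.4%. Their GC contents were 62.0%, 59.0% and 60.3%. The letters CACGTG, an E-box, were present in the B3gnt7 window and in 7.15% of all 32851 windows. The letters CAATAAA, a motif of posterior HOX factors, were searched on both strands and were found in 3 of the 80 windows of tested members (3.75%), those of Fut8, Galnt11 and Gcnt2, against 4.6% of all windows. Of the 87 members, 67 had a window in the table and 20 did not. A match in these windows describes the letters and is no evidence of binding.

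On the per-length scale, the most abundant member was St6galnac6, a sialyltransferase of gangliosides and Lewis-type chains, with a mean of 289 FPKM and a range of 187 to 364 over the 6 libraries. B4galnt2, which adds the GalNAc of the Sda antigen, followed with a mean of 198 FPKM and a range of 88.2 to 356. B3gnt7, which extends chains with GlcNAc and prefers sulfated acceptors, had a mean of 125 FPKM but a range of 7.68 to 274. These ranges overlap, so the order of the first 3 is not separated beyond the spread over libraries. B3gnt3, the enzyme that extends core 1, averaged 101 FPKM within 86.1 to 114, and B3galt5, which makes type 1 chains by adding galactose to GlcNAc, averaged 82.4 FPKM within 61.7 to 95.9. Of the 80 described members, 45 had a mean of at least 5 FPKM.

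Most steps of the pathway had an abundant member. In initiation, Galnt12 averaged 50.7 FPKM, Galnt10 averaged 48.6 FPKM, Galnt4 averaged 40.8 FPKM and Galnt7 averaged 40.4 FPKM. Core 1 was represented by C1galt1 at 37.3 FPKM and by its chaperone C1galt1c1 at 71.8 FPKM. Core 3 rested on B3gnt6, which averaged 17.2 FPKM but ranged from 1.11 to 38.9 FPKM. Gcnt3, the mucin-type branching enzyme of core 2 and core 4, reached 75.2 FPKM against 6.6 FPKM for Gcnt1, a core 2 enzyme. B4galt1, the leading β1,4-galactosyltransferase, averaged 34.3 FPKM. Fut2, which makes the fucosylated H antigen of secretions, averaged 64.4 FPKM and Chst4, a GlcNAc-6-O-sulfotransferase, averaged 43.6 FPKM.

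Members known from mucin glycans were also found near 0. St6galnac1, which makes the sialyl-Tn antigen, had at most 2 counts in any library, and its relative St6galnac2 averaged 34.3 FPKM. Chst5, another GlcNAc-6-O-sulfotransferase, was described at a mean of 0.139 FPKM but was too low to be tested, as was the chondroitin sulfotransferase Chst13. The 7 members below the minimum were St6galnac1, B3gnt4, Chst9, Fut7, Galnt14, Gcnt7 and St6gal2, with no more than 29 counts in a library.

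**Figure D1:**
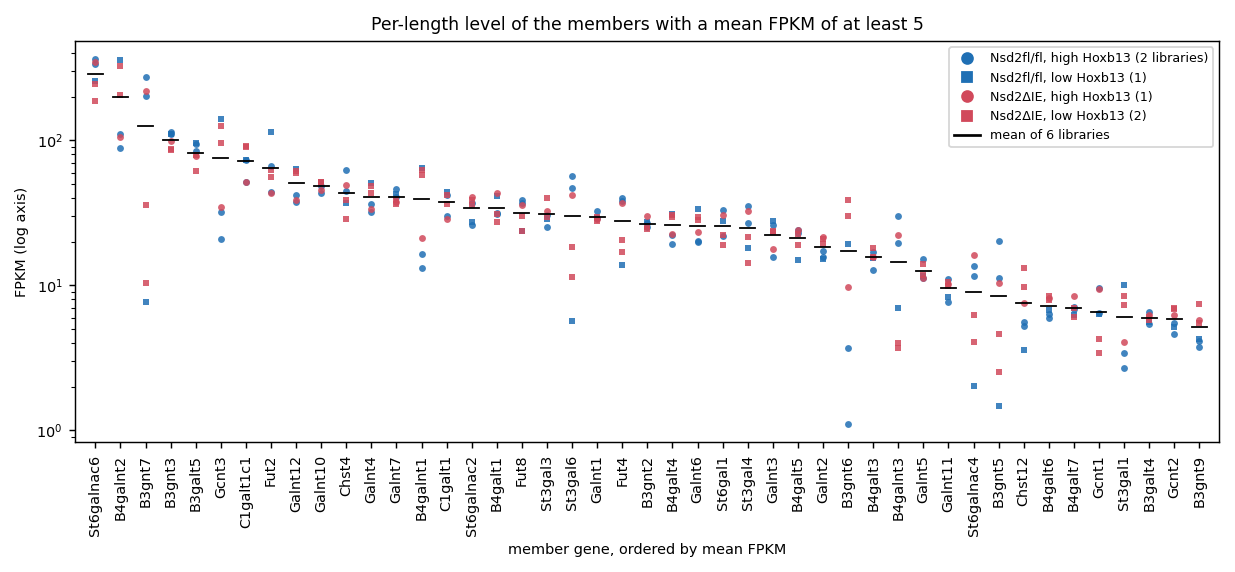
Deposited FPKM (log axis) of the 45 described members with a mean of at least 5 FPKM, ordered by the mean of the 6 libraries (black bar); each point is 1 library, coloured by genotype and shaped by Hoxb13 level. Abundant members such as B3gnt3 (86.1 to 114 FPKM) lie close together, whereas B3gnt7 runs from 7.68 to 274 FPKM with the 3 squares of low Hoxb13 at the bottom.

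The widest differences among the libraries did not follow the genotype. B3gnt7 stood at 702, 557 and 555 CPM in the 3 libraries of high Hoxb13 and at 21.6, 26.3 and 86.5 CPM in the 3 of low Hoxb13. The lowest high library was 6.41 times the highest low library, and each genotype had libraries on both sides. Between the genotypes, B3gnt7 had a log2 difference of -0.94 with an SE of 1.35 (edgeR quasi-likelihood test, adjusted p = 0.82), and leaving out single libraries moved it from -0.38 without Nsd2fl/fl replicate 1 to -2.93 without Nsd2ΔIE replicate 1.

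Over all 78 tested members, 32 (41%) had no overlap between the 2 sets of libraries, against 22.4% of the 16347 genes tested. Of the 32, 19 were higher with Hoxb13 (24.4%, against 12.8% of all genes) and 13 were lower with it (16.7%, against 9.55%). The sets were formed from the data, from a gene that is no member, and these counts are a description without a test. No minimum margin between the sets was required, for members or for all genes. The members' range over the 6 libraries had a median of 0.92 on the log2 CPM scale, and that of all genes was 0.66. A range of at least 2 was found in 15 members (19.2%, against 5.43% of all genes), whereas 43 members (55.1%) had a range under 1. Of the 15, 13 separated the sets. The matching shares of all genes were not computed for the 13 and the 43, so neither count can be read as particular to the members.

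**Figure D2:**
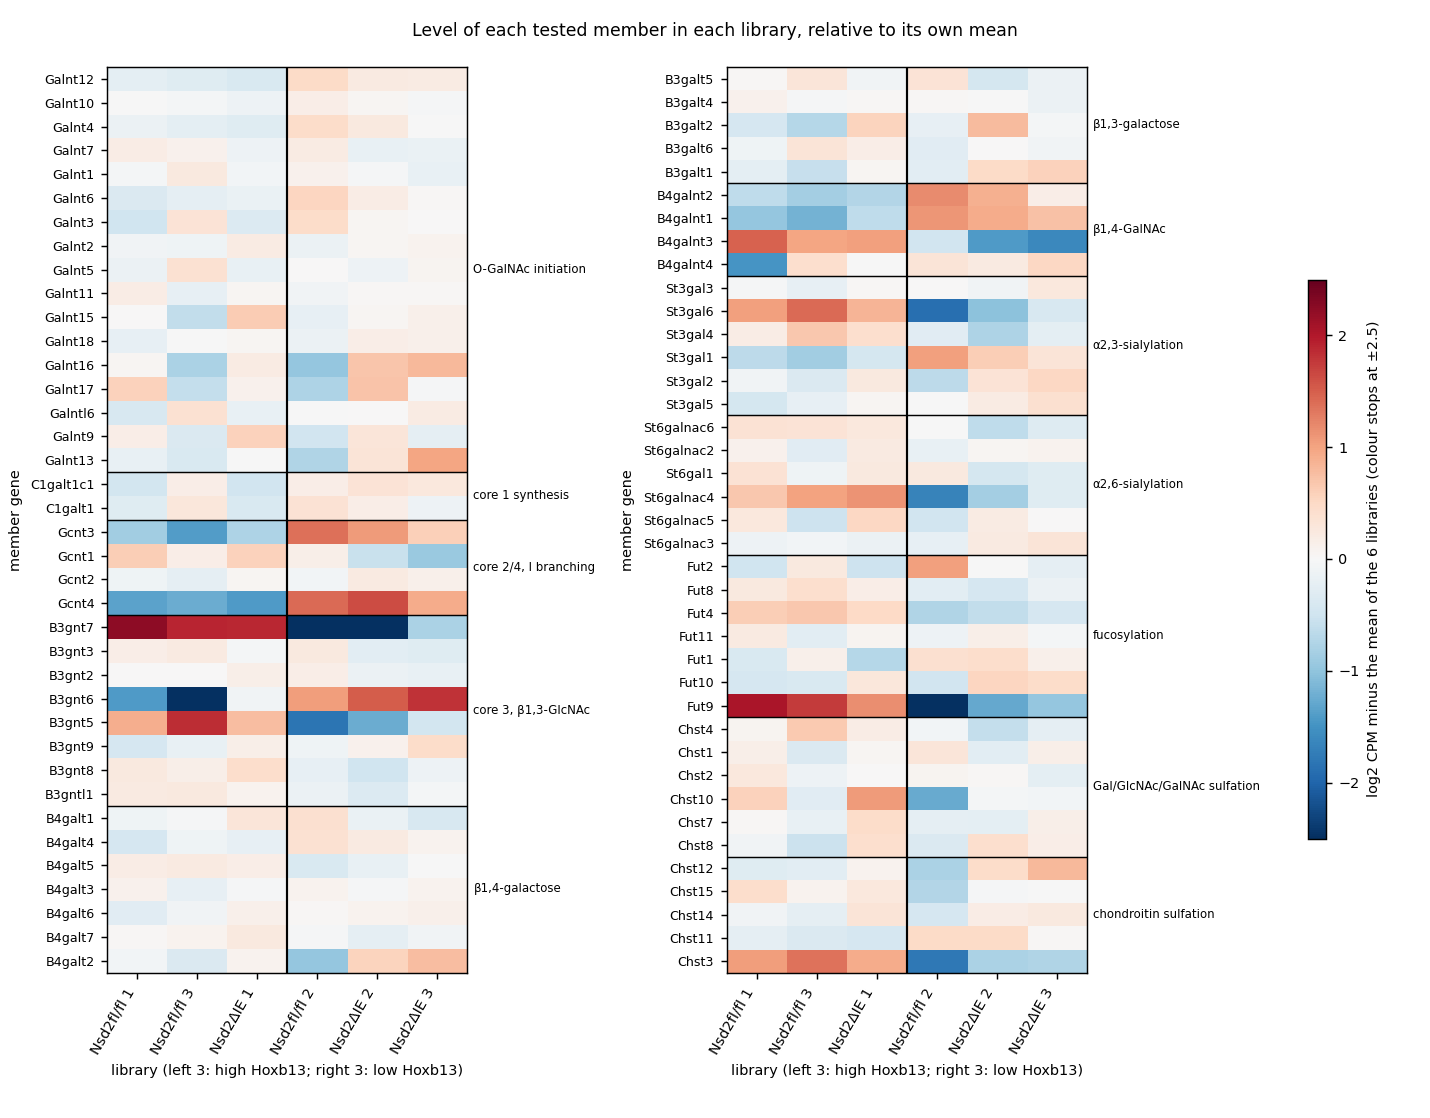
Heat map of log2 CPM minus the mean of the 6 libraries (colour scale, stopping at ±2.5) for the 77 tested enzymes, in rows grouped by role, with the 3 libraries of high Hoxb13 left of the black line in each panel and the 3 of low Hoxb13 right of it. B3gnt7, Fut9, B3gnt5, St3gal6 and Chst3 are red on the left and blue on the right, and Gcnt3, Gcnt4, B3gnt6, B4galnt1 and B4galnt2 show the opposite.

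The 19 members higher with Hoxb13 also came from many roles, with 4 of GlcNAc extension, 3 fucosyltransferases, 2 α2,3- and 2 α2,6-sialyltransferases among them. St3gal6, which puts α2,3-linked sialic acid on galactose at chain ends, stood at 281, 368 and 248 CPM in the high libraries and at 36.9, 67.2 and 103 CPM in the low ones. B3gnt5, which makes the lacto-series glycolipid precursor, stood at 59.7, 116 and 54.4 CPM against 8.62, 13.1 and 22.9 CPM. The nearest libraries of the sets differed by a ratio of 2.41 for St3gal6 and 2.38 for B3gnt5. Fut9, an α1,3-fucosyltransferase of the Lewis x antigen, was low everywhere but stood at 16.2, 13.1 and 8.58 CPM against 0.113, 1.16 and 1.57 CPM. Fut4, another Lewis x enzyme and more abundant, stood at 144, 149 and 132 CPM against 55.2, 60.7 and 69.9 CPM. Both lay on the same side, and Fut7, another enzyme of that kind, was below the count minimum.

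The remaining sialyltransferases on that side were St6galnac4, St3gal4 and St6galnac6. St6galnac4, which sialylates the GalNAc of sialylated core 1, stood at 45.9, 58.4 and 63 CPM in the high libraries and at 8.73, 15.8 and 23.2 CPM in the low ones. St6galnac6 was separated by a smaller margin, at 913 to 970 CPM against 491 to 749 CPM. St3gal4, which acts on galactose of extended chains, stood at 399 to 565 CPM against 207 to 296 CPM. B4galnt3, which makes the LacdiNAc structure, stood at 197, 139 and 143 CPM against 50.2, 26.1 and 22.7 CPM. Sulfotransferases also lay on this side. Chst3, a chondroitin 6-O-sulfotransferase, was scarce at 6.76 to 9.24 CPM against 0.593 to 1.74 CPM. Chst4 stood at 92.5 to 140 CPM against 58 to 83.7 CPM.

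The 13 members that were higher in the libraries of low Hoxb13 came from many roles: initiation (Galnt12, Galnt4 and Galnt6), core 1 (C1galt1c1), branching (Gcnt3 and Gcnt4), core 3 (B3gnt6), GalNAc capping (B4galnt1 and B4galnt2), and single genes of galactose addition, sialylation, fucosylation and chondroitin sulfation (B4galt4, St3gal1, Fut1 and Chst11). Gcnt3 stood at 719, 578 and 414 CPM in the low libraries and at 150, 104 and 160 CPM in the high ones. Gcnt4, a further core 2 enzyme, stood at 18.4, 21.6 and 13 CPM against 2.31, 2.5 and 2.17 CPM. The nearest libraries differed by a ratio of 2.6 for Gcnt3 and 5.22 for Gcnt4, while Gcnt1 went the other way with sets that almost touched (ratio of 1.01). Among the 13, the sets also almost touched for C1galt1c1 (ratio of 1.01) and Fut1 (nearest libraries at 2.31 and 2.3 CPM). B3gnt6, the core 3 enzyme, stood at 49.8, 69.3 and 85.2 CPM in the low libraries and at 8.62, 2.81 and 22.5 CPM in the high ones. B4galnt2 stood at 1609, 1321 and 796 CPM in the low libraries against 456, 393 and 425 CPM, and B4galnt1, the GM2/GD2 ganglioside synthase, at 264, 232 and 203 CPM against 62, 53.6 and 78.5 CPM. St3gal1, the sialyltransferase of core 1 galactose, was higher in the low libraries (68, 51 and 41.9 CPM) than in the high ones (21, 18 and 24.6 CPM). The α2,3-sialyltransferases included members on both sides, with St3gal1 opposite to St3gal4 and St3gal6, and St3gal2, St3gal3 and St3gal5 overlapping between the sets.

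**Figure D3:**
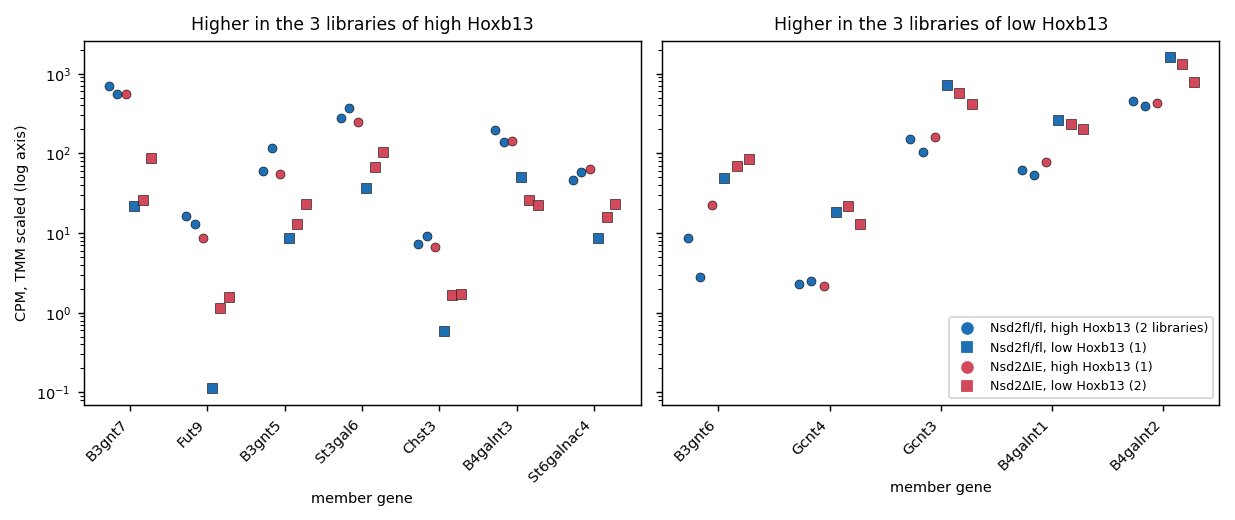
CPM (log axis) of the 12 enzymes with a log2 range of at least 2 whose levels did not overlap between the libraries of high Hoxb13 (circles) and low Hoxb13 (squares); each point is 1 library, blue for Nsd2fl/fl and red for Nsd2ΔIE. In the left panel all circles lie above all squares, as for B3gnt7 at 555 to 702 against 21.6 to 86.5 CPM, and in the right panel all squares lie above all circles, as for Gcnt4 at 13 to 21.6 against 2.17 to 2.5 CPM.

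Of the 17 tested O-GalNAc initiation genes, 3 separated the sets (17.6%, against 22.4% of all genes), namely Galnt12, Galnt4 and Galnt6, each higher with low Hoxb13. Galnt12 stood at 155, 131 and 129 CPM in the low libraries and at 93.9, 90.5 and 85.5 CPM in the high ones. Galnt10 was nearly level at 212 to 261 CPM over the 6 libraries. The median log2 range was 0.78 among initiation genes and 0.59 among β1,4-galactosyltransferases, against 2.17 among the Gcnt genes, 2.16 among the B4galnt genes and 0.66 among all genes. The Gcnt and B4galnt medians are of only 4 tested genes each. Single Gcnt genes ran from 0.45 for Gcnt2 to 3.05 for Gcnt4.

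Goblet cells are the main mucin-producing cells of the colon, and their markers did not move one way with this split. Of 9 goblet markers, 3 were higher with Hoxb13 without overlap (Clca1, Fcgbp and Tff3), 2 were lower (Muc2 and Spdef), and 4 overlapped. Muc2 stood at 16260, 9133 and 11297 CPM in the libraries of low Hoxb13 and at 6340, 5176 and 4901 CPM in those of high Hoxb13. The summed level of the 9 was 31176 to 50688 CPM in the high libraries and 19937 to 28562 CPM in the low ones, with a large part from Clca1 at 12548 to 27461 CPM against 2594 to 4744 CPM. None of the 9 was at 0 in a library. All 7 markers of B and plasma cells were higher with Hoxb13, at a summed level of 1516 to 2413 CPM against 1047 to 1263 CPM. The 6 T cell markers were also separated, but 4 were lower with Hoxb13 (Cd3e, Cd3d, Cd3g and Cd8a) and 2 were higher (Cd2 and Cd4). In bulk tissue, fewer cells of a type and less RNA per cell cannot be told apart, and the part of goblet, plasma and T cells in the members' levels was not tested.

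Between the genotypes, no member passed an adjusted p of 0.05 (edgeR quasi-likelihood test with Benjamini-Hochberg adjustment over 16347 genes), where 5 genes in all did (0.0306%). At an unadjusted p under 0.05, 14 of the 78 members were higher in Nsd2ΔIE (17.9%, against 8.15% of all genes) and 3 were lower (3.85%, against 2.96%). The lower share is near that of all genes. DESeq2 called 6 members at an adjusted p under 0.05 (Fut10, Chst12, St3gal2, B3gnt3, B3galt2 and Galnt7) of 455 genes (2.78%). The median difference of the members was 0.0281 on the log2 scale and that of all genes was -0.0415, with 41 members fitted above 0 and 37 below. With library totals alone in place of TMM factors, which moved the median of all genes by 0.13, 16 members were higher and 1 was lower. Leaving out single libraries moved these counts. Only 6 members were higher without Nsd2ΔIE replicate 3, 8 without Nsd2ΔIE replicate 2, 9 without Nsd2ΔIE replicate 1 and 7 without Nsd2fl/fl replicate 3. None was lower without Nsd2ΔIE replicate 2 or 3, whereas 8 were lower without Nsd2ΔIE replicate 1 and 6 without Nsd2fl/fl replicate 1.

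The 3 members lower in Nsd2ΔIE were abundant enzymes of initiation and extension, each above 40 FPKM. B3gnt3 stood at 292, 309 and 307 CPM in Nsd2fl/fl and at 252, 218 and 211 CPM in Nsd2ΔIE. B3galt5 stood at 574, 714 and 694 CPM against 525, 413 and 507 CPM. Galnt7, which prefers peptides that already carry GalNAc, stood at 206, 210 and 196 CPM against 166, 161 and 162 CPM. The groups of all 3 genes did not overlap, and all 3 Nsd2ΔIE libraries lay below every Nsd2fl/fl library. In edgeR's quasi-likelihood test the log2 difference of B3gnt3 was -0.41 (SE 0.122, adjusted p = 0.321), that of B3galt5 was -0.46 (SE 0.165, adjusted p = 0.393) and that of Galnt7 was -0.32 (SE 0.101, adjusted p = 0.337). Other members of the same roles went the opposite way at an unadjusted p under 0.05. These were Galnt2, Galnt13, Galnt15 and Galnt16 of initiation, B3gnt9 of GlcNAc extension, and B3galt1 and B3galt2 of β1,3-galactose addition. Galnt1, also of initiation, was not past the threshold in that test, with a log2 difference of -0.2 (SE 0.116, adjusted p = 0.574). Neither was C1galt1, of core 1 synthesis, with -0.24 (SE 0.219, adjusted p = 0.716).

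The 14 members higher in Nsd2ΔIE were mostly scarce: 10 of them had a mean under 5 FPKM, as did 33 of all 78 tested members. Fut10, a member of the fucosyltransferase family, stood at 3.22, 3.08 and 3.37 CPM in Nsd2fl/fl and at 5.6, 6.74 and 6.41 CPM in Nsd2ΔIE. It had the smallest p of the members, with a log2 difference of 0.95 (SE 0.182, adjusted p = 0.302). St3gal2, which adds α2,3-linked sialic acid to core 1 and to gangliosides, stood at 15.3, 10.1 and 12.6 CPM against 19.3, 20.7 and 23.3 CPM, a log2 difference of 0.74 (SE 0.184, adjusted p = 0.302). St3gal1, the other core 1 sialyltransferase, had a log2 difference of 0.14 with an SE of 0.543.

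Sulfotransferases of chondroitin and dermatan sulfate, which are proteoglycan chains of connective tissue and not of mucins, made up part of this group. Chst12, a chondroitin 4-O-sulfotransferase, stood at 10.1, 7.06 and 10.3 CPM in Nsd2fl/fl and at 13.3, 17.4 and 22.3 CPM in Nsd2ΔIE (log2 difference 0.95, SE 0.244, adjusted p = 0.303). Chst14, the dermatan 4-O-sulfotransferase, stood at 3.87, 2.97 and 3.45 CPM against 5.3, 4.77 and 4.97 CPM (log2 difference 0.55, SE 0.197, adjusted p = 0.392). The other 3 tested genes of that role, Chst3, Chst11 and Chst15, had log2 differences of -0.75, 0.0744 and 0.0732, none past the threshold. Of the 6 tested genes that sulfate galactose, GlcNAc or GalNAc or make the HNK-1 epitope, only Chst8, a GalNAc-4-O-sulfotransferase known from hormone glycans, was past it, at 0.618 to 1.04 CPM against 1.33 to 1.69 CPM. Chst4 had a log2 difference of -0.44 (SE 0.263, adjusted p = 0.594).

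Initiation contributed Galnt13, Galnt16, Galnt15 and Galnt2 to the higher members. Galnt13, known from nervous tissue, had the largest fitted log2 difference of the members, 1.9 (SE 0.648, adjusted p = 0.367), but its levels were only 0.0848 to 0.364 CPM in Nsd2fl/fl and 0.479 to 1.45 CPM in Nsd2ΔIE. Galnt16 stood at 4.75, 2.09 and 2.44 CPM against 5.3, 7.65 and 8.44 CPM, a log2 difference of 1.2 (SE 0.366, adjusted p = 0.328). Galnt15 ran from 11.8 to 18.4 CPM against 18.8 to 28.8 CPM. Galnt2, a broadly expressed initiation enzyme, stood at 70, 67.8 and 69.6 CPM against 86.3, 76.8 and 79.3 CPM, the smallest difference of the group with a log2 value of 0.23 (SE 0.0942, adjusted p = 0.446). Of its exon bases in GENCODE M21, 90% also belong to Gm20388, a gene model on the same strand. Its count may therefore depend on how reads shared by both genes were treated. The abundant initiation genes Galnt12, Galnt10, Galnt4 and Galnt6 had log2 differences of 0.0232, -0.0715, -0.0621 and -0.00968, and for each of these 4 the sign turned under another scaling, filter or covariate.

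The other higher members were the galactosyltransferases B3galt1, B3galt2 and B4galt2, with B3gnt9 and the I-branching enzyme Gcnt2. B3galt2 stood at 9.37, 11 and 7.58 CPM in Nsd2fl/fl and at 19, 22.4 and 12.3 CPM in Nsd2ΔIE, with a log2 difference of 0.94 (SE 0.258, adjusted p = 0.312). B3galt1 was at 0.309 to 0.519 CPM against 0.757 to 1.3 CPM, and B4galt2 at 1.98 to 4.13 CPM against 4.64 to 7.81 CPM. B3gnt9 ran from 9.74 to 12.1 CPM against 14.2 to 18.2 CPM and Gcnt2 from 34.9 to 39.3 CPM against 42.5 to 47.8 CPM. The groups did not overlap for any of the 14. Under all 17 alternative settings, Fut10, St3gal2, Chst12 and B3galt2 were past the unadjusted threshold, with adjusted p from 0.00145 to 0.99 for Fut10. Counting all members without overlap, 17 were higher (21.8%, against 11.4% of all genes), with B4galt6, Galnt18 and St3gal5 added, and 3 were lower (3.85%, against 7.28%).

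**Figure D4:**
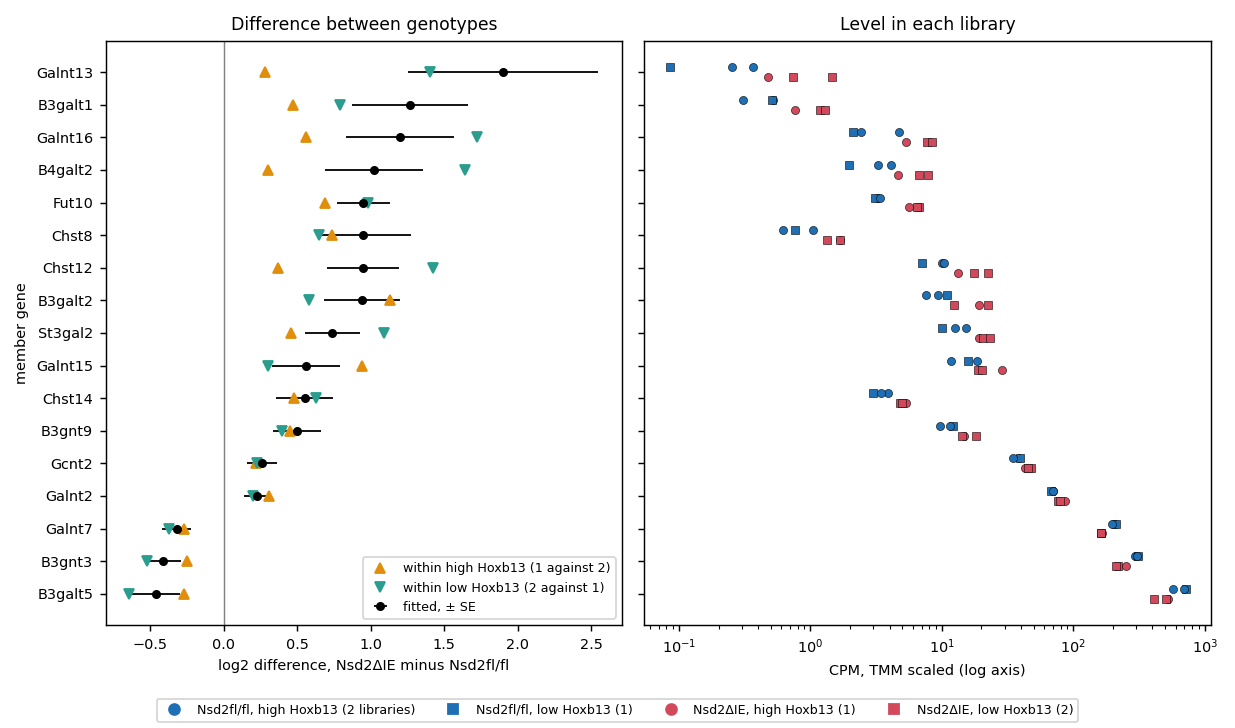
Left, fitted log2 difference between Nsd2ΔIE and Nsd2fl/fl (black point, bar of 1 SE) of the 17 members with an unadjusted p under 0.05, with the difference of mean log2 CPM within the libraries of high Hoxb13 (orange) and of low Hoxb13 (green). Right, CPM (log axis) in each of the 6 libraries; the 14 upper genes have every red point right of every blue point, and the 3 lower genes have the reverse. Without overlap the triangles must lie on the side of the black point, so only their distance from 0 is to be read, as for B4galt2 at 0.3 and 1.64. For scarce genes the offset of 0.5 draws the triangles towards 0, as for B3galt1 at 0.47 and 0.79 against a fitted 1.27.

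Among the members that separated the Hoxb13 sets, those with wide ranges had wide errors in the genotype comparison. B3gnt6 had a log2 difference of 1.53 (SE 1, adjusted p = 0.622), Gcnt4 of 0.67 (SE 1.03, adjusted p = 0.834) and Fut9 of -1.38 (SE 1.36, adjusted p = 0.738). St3gal6 had -0.72 (SE 0.817) and B3gnt5 had -1.03 (SE 0.885). B4galnt2, Gcnt3 and St3gal1 had 0.0479 (SE 0.638), 0.24 (SE 0.792) and 0.14 (SE 0.543), and the sign of each turned when a single library was left out. Errors were smaller for members that varied less over the libraries, such as St3gal3 with 0.15 (SE 0.127) and St6galnac2 with 0.23 (SE 0.133), Galnt5 with -0.18 (SE 0.161) and Galnt3 with -0.25 (SE 0.259). This held also for members that separated the sets, such as B4galt5 with -0.0363 (SE 0.184) and Fut8 with -0.28 (SE 0.223). St6galnac6, the most abundant, had -0.42 (SE 0.26, adjusted p = 0.607).

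Since the genotypes held unequal numbers of libraries of high Hoxb13, the differences were also computed within each set, without a test. The high set compared 1 Nsd2ΔIE with 2 Nsd2fl/fl libraries and the low set 2 with 1. Because the genotypes of the 17 members with an unadjusted p under 0.05 did not overlap, the sign within a set could not differ from the whole. Only the sizes are informative, and as differences of mean log2(CPM + 0.5) they are drawn towards 0 for scarce members. For Fut10 the differences were 0.69 and 0.98 on the log2 scale in the high and low set, for St3gal2 they were 0.46 and 1.09, and for B3gnt3 they were -0.25 and -0.52. B4galt2 was less even, at 0.3 and 1.64.

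With log2 CPM of Hoxb13 as a covariate in the fit over all genes, all 17 had an unadjusted p under 0.05 with the same sign, and 6 more members passed it. In all, 17 members were then higher (21.8%, against 12.2% of all genes) and 6 were lower (7.69%, against 5.57%), and no member passed an adjusted p of 0.05, where 6 genes did (0.0367%). B3gnt6 was the largest addition, with a log2 difference of 1.97 and within-set differences of 2.07 and 0.62. Fut2 had a log2 difference of -0.61, with -0.39 and -1.14 within the sets, where its levels were 140, 400 and 232 CPM in Nsd2fl/fl and 137, 196 and 168 CPM in Nsd2ΔIE. Without a covariate the difference of Fut2 was -0.62, and it was -0.15 when Nsd2fl/fl replicate 2, the library at 400 CPM, was left out. B4galnt3 had -1.06 with -0.21 and -1.03 within the sets. B3gnt7 reached -0.53, but its within-set differences were -0.17 and 1.13, of opposite sign. The other additions were B4galnt1 and Chst10, both fitted higher. B4galnt1 had 0.54, but its within-set differences were 0.44 and -0.29, also of opposite sign. Chst10 had 0.98 with 0.93 and 1.21 within the sets.

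Markers of muscle and nerve differed between the genotypes alongside the higher members. Of the 10 smooth muscle markers 9 were higher in Nsd2ΔIE at an unadjusted p under 0.05, with a summed level of 1626 to 4507 CPM in Nsd2fl/fl and 5590 to 12016 CPM in Nsd2ΔIE. All 8 markers of enteric neurons (60.6 to 119 against 152 to 187 CPM) and all 4 of enteric glia (12.4 to 17 against 24 to 37.6 CPM) were higher, as were 3 of 7 fibroblast markers (1276 to 1552 against 1359 to 1577 CPM). Of the 10 epithelial markers, 1 was lower, the epithelial transcription factor Elf3, all 10 had fitted differences below 0 with a median of -0.31 on the log2 scale, 3 of them (Elf3, Epcam and Cdh1) had groups without overlap, and the summed level was 10698 to 18440 CPM in Nsd2fl/fl and 10528 to 11867 CPM in Nsd2ΔIE. None of the 9 goblet markers passed in either direction, and no marker of the lists named so far was at 0 in any library. Of 4 tested adipocyte markers 1 was higher (summed level 14.8 to 30 against 31 to 65.2 CPM), with Adipoq, Plin1 and Lep at 0 in at least 1 library. No marker of endothelium, B and plasma cells, T cells or macrophages passed. The part of these cell types in the members' differences was not tested.

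The pathway around the members was read from a list of 61 genes. It covered mucin proteins, sugar donors, their Golgi transporters, sulfate activation and 9 further mucin glycan enzymes outside the member families. Of the 61 genes, 51 were tested. At an unadjusted p under 0.05, 3 were higher (5.88%, against 8.15% of all genes) and 2 were lower (3.92%, against 2.96%) in Nsd2ΔIE, shares near those of all genes, and none passed the adjusted threshold. Muc13, a membrane mucin, stood at 1862, 2799 and 2362 CPM in Nsd2fl/fl and at 1655, 1541 and 1133 CPM in Nsd2ΔIE (log2 difference -0.7, SE 0.242, adjusted p = 0.374). Slc35c1, the Golgi transporter of GDP-fucose, stood at 282, 285 and 354 CPM against 251, 225 and 239 CPM (log2 difference -0.36, SE 0.139, adjusted p = 0.414). The higher genes were Nanp, of sialic acid synthesis, with a log2 difference of 1.68 at 0.13 to 0.226 CPM against 0.313 to 1.01 CPM, Gfpt2, of UDP-GlcNAc synthesis, with 0.6, and Galk1, galactokinase, with 0.5. Muc2 itself had a log2 difference of -0.13 (SE 0.531, adjusted p = 0.938), and none of the 6 tested genes of sulfate uptake and activation was past the threshold.

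Overlapping annotation, read from GENCODE M21, and scarcity limit some members. Of the exon bases of B3gnt2, 58.6% are shared with Gm28048 on the same strand, and of B4galt2, 28.2% with Ccdc24 on the same strand. St3gal6 shares 26% with Dcbld2 on the opposite strand, and Galnt6os shares 22.4% with Galnt6, so that without a stated strand setting their reads cannot be told apart there. Galnt6os had the lowest fitted log2 difference of the members, -1.5 (SE 1.39, adjusted p = 0.723), at no more than 2.13 CPM, and was separated by Hoxb13 like B3gnt7 and not like Galnt6.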

How the data were processed

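The authors deposited whole-number counts per gene and FPKM for each of the 6 libraries. Per the labels, total RNA was extracted with TRIzol, and the processing notes of the submitters name fastp, HISAT2, HTSeq, R 3.2.0 and the build mm10. The gene annotation and the strand setting of the counting are not given in the sources used here. The deposited FPKM were used only for levels between genes and for alternatives on log2(FPKM + 1) and log2(FPKM + 0.1).

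Counts were fitted over all genes that passed filterByExpr (16347) with edgeR 4.0.16 (R 4.3.3), using TMM factors, the quasi-likelihood test on genotype alone, two-sided, and Benjamini-Hochberg adjustment. The fitting code was tested on simulated data. CPM are TMM scaled, and ranges are of log2(CPM + 0.5). DESeq2 1.42.0 and limma 3.58.1 served as alternatives, with other scalings, filters, a replicate block, Hoxb13 as a covariate and each library left out. The within-set differences and the counts without overlapping members were added after seeing the data. Named members were those with an unadjusted p under 0.05, the most abundant of each role, known mucin enzymes, the 5 widest ranges and the extremes; B4galnt1, B4galnt3, Chst3, Chst10, Fut4, St6galnac4 and a few relatives were named after their values were seen. Members, roles and lists were chosen with earlier results of these data known. No library was identical to another within sampling noise, and 0 columns of samples were left unused. Intervals of counting error are not given, since PCR reads are not independent molecules.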

Additional observations from a re-analysis of the deposited data

How the results depend on the processing

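Counts were compared over 17 alternatives. The share of all genes at an unadjusted p under 0.05 is given only for the edgeR fit and the Hoxb13 covariate. Members with an adjusted p under 0.05 numbered 0 under every alternative but DESeq2, which called 6, and genes in all numbered 5 under the edgeR fit, 455 with DESeq2 and 3 to 5 when single libraries were left out. Lower members numbered 6 with the Hoxb13 covariate, 1 with library totals alone, 7 with the replicate block and 0 to 8 without single libraries, and higher members 6 to 17 without single libraries. The deviations of same-numbered libraries correlated at 0.501, 0.643 and -0.166, so the numbers were not taken to pair the samples. Without members sharing over 50% of their exon bases with another gene, 13 were higher and 3 were lower. Of 44 named members 34 had the same sign in all 17 alternatives, among them the 17 past the unadjusted threshold (adjusted p from 0.00145 to 0.99), for which the absence of overlap between the genotypes favours this. The other 10 had small differences against their spread, and the cause was not tested. Galnt10 turned to 0.0573 with library totals alone, 0.0576 on log2(FPKM + 0.1) and 0.0565 on log2(FPKM + 1). Galnt12 turned to -0.00979 with the Hoxb13 covariate and -0.00858 without a filter. Galnt4 turned to 0.0716 with library totals alone, 0.0828 on log2(FPKM + 0.1), 0.0808 on log2(FPKM + 1) and 0.00992 with upper-quartile factors. Galnt6 turned to 0.13 with library totals alone, 0.037 with limma-voom, 0.17 on log2(FPKM + 0.1), 0.16 on log2(FPKM + 1), 0.00388 with a mean count of at least 10, 0.0392 with the replicate block and 0.0638 with upper-quartile factors. When single libraries were left out, log2 differences ranged from -0.43 to 0.99 for B4galnt2, -0.38 to 0.0122 for B4galt1, -0.0903 to 0.32 for C1galt1c1, -0.11 to 0.000685 for Galnt10, -0.11 to 0.32 for Galnt12, -0.2 to 0.19 for Galnt4, -0.18 to 0.32 for Galnt6, -0.18 to 1.59 for Gcnt3, -0.0235 to 2.35 for Gcnt4 and -0.17 to 1.01 for St3gal1. With 3 libraries a group, scarce members such as Galnt13, under 1.5 CPM throughout, rest on few reads.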
